A study of Mus musculus with 10 samples.

Results

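Mpdz and Patj, a pair of paralogous genes that encode scaffold proteins, were followed in the nucleus accumbens (NAc) of 2 inbred mouse strains. They were found by matching the Ensembl identifiers of the deposited count table to gene symbols in the GENCODE vM39 annotation of GRCm39, and are 2 of the 29883 genes in that table. RNA had been taken from the NAc, in the ventral striatum, of ethanol-naive adult male mice, 5 C57BL/6J (B6) and 5 DBA/2J (D2), with 1 poly-A library for each mouse. The strains differ in many ethanol-related behaviors and are the parents of a recombinant inbred panel used to map such traits. No mouse had been given ethanol or any other agent, so the only comparison is that of the strains, and every locus that differs between them differs here at the same time. Counts are of whole tissue, in which fewer cells of a type and less RNA per cell cannot be told apart.

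Mpdz, also called MUPP1, is built from a long row of PDZ domains, each a small module that holds the tail of a membrane protein, behind an L27 domain. It gathers receptors such as the serotonin receptor 5-HT2C and the GABA-B receptor subunit GABBR2, and the Crumbs polarity complex and tight junction proteins of epithelia. Patj has the same layout and joins the Crumbs complex by binding Pals1 through its L27 domain. Mpdz lies in a locus on mouse chromosome 4 that was mapped for the severity of withdrawal from alcohol and barbiturates in crosses of these strains, and has been studied as a candidate gene for it.

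Both genes lie on chromosome 4 of GRCm39. Mpdz (ENSMUSG00000028402) spans chr4:81196710-81371541 on the minus strand, and Patj (ENSMUSG00000061859) spans chr4:98284022-98607840 on the plus strand, 16.9 Mb away. The merged exons of all annotated transcripts come to 15278 bases for Mpdz and 13162 bases for Patj, with a longest coding sequence of 6234 and 5574 bases. The longest stretch that their canonical coding sequences share is 19 bases, which bears on whether reads of the one could have been counted on the other. It is shown in capitals within 30 bases of coding sequence, read from the GRCm39 genome 5′ to 3′ along each gene's own strand. The Mpdz window is in exon 37 of 47, at chr4:81210999-81211028 on the minus strand, and the Patj window is in exon 35 of 44, at chr4:98555866-98555895 on the plus strand.
Mpdz: aagacTATGGGCTGGAGACCAGATtttaga
Patj: aagatTATGGGCTGGAGACCAGATattaga

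The shared stretch lies in the same codon frame of both genes. No run of 31 bases from the transcripts of either gene occurred in those of the other. Of the 15749 different 31-base runs in Mpdz transcripts, 2 also occurred in a transcript of any other gene, and of the 13310 in Patj transcripts 353 did (2.65%). The counts of this pair can therefore be told apart along nearly all of their length. One small nucleolar RNA gene is annotated within Mpdz, and none of its counts are in the table. Of 5 genes annotated over Patj, 3 lie on the opposite strand and 1, Gm12846, is in the table with a mean of 1.7 counts per library. The strand setting of the counting is not given in the sources used here.

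Between 96977262 and 116776714 reads per library were counted on genes. Depth averaged 104412000 in B6 and 111473000 in D2. The difference did not pass (two-sided exact permutation test, p = 0.0635, 5 against 5), which does not show that depth was alike. B6 replicates 3 and 5 stood apart from the other B6 libraries. On the second principal component, which held 15.7% of the variance, they lay at 25.2 and 25.2 and the other B6 libraries between -22.0 and -12.4. Their counts were also more alike than those of any other pair of libraries of 1 strain. The mean chi-square per gene was 4.89, above sampling noise, against 18.1 to 123 for the 19 other pairs. This value cannot tell separate mice from a shared source of RNA, which was not tested. B6 replicates 3 and 5 were kept as separate mice because the labels name different mice, and the tests count them so. Among the cortical neuron markers, Slc17a7, Neurod6 and Tbr1 were 6.01 to 9.39 times as high in these libraries as in the other B6 libraries, and Cux2 was 0.774 times as high. All 7 markers of striatal neurons were present in every library. Their summed normalized count was 344605 and 339993 in B6 replicates 3 and 5, 389188 to 455663 in the other B6 libraries and 284529 to 351449 in D2. The strain differences of Mpdz and Patj, their ratio and the counts of called genes in each list are therefore given with and without B6 replicates 3 and 5.

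Mpdz was on average lower in D2, but this difference did not pass the test across all genes, and it was nearly absent without B6 replicates 3 and 5. In normalized counts (scaled by the trimmed mean of M values, TMM), B6 replicates 1 to 5 held 4826, 4396, 6730, 4030 and 6768. The D2 replicates held 3886, 4702, 4076, 4770 and 3972. Replicates 3 and 5 were the highest of all 10 libraries, and the 3 other B6 libraries, from 4030 to 4826, overlapped the D2 range of 3886 to 4770. B6 averaged 5350 ± 1308 (SD, n = 5) and D2 averaged 4281 ± 422 (SD, n = 5). Relative to B6, Mpdz in D2 had a log2 fold change of -0.32 (SE 0.139, 95% interval -0.62 to -0.02), with an adjusted p of 0.141 in edgeR's quasi-likelihood test. An exact permutation test over the mice gave p = 0.143 (two-sided, where the smallest p for 5 against 5 is 0.00794). Without B6 replicates 3 and 5 the B6 mean was 4417 ± 399 (SD, n = 3), the log2 fold change was -0.05 and the adjusted p from edgeR was 0.754. Mpdz is often described as differing between these strains, and in this tissue it was not called, although the interval does not show that the strains were alike.

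Patj was higher in D2 and passed the test across all genes, by a narrow margin. The normalized counts of B6 replicates 1 to 5 were 2713, 2364, 1715, 2298 and 1877. Those of the D2 replicates were 3218, 2676, 2338, 3147 and 2957. The strains overlapped, since B6 replicate 1 lay above D2 replicates 2 and 3 and B6 replicate 2 above D2 replicate 3, and the lowest values were those of B6 replicates 3 and 5. B6 averaged 2193 ± 400 (SD, n = 5) and D2 averaged 2867 ± 363 (SD, n = 5). D2 had 1.31 times the B6 level, a log2 fold change of 0.39 (SE 0.121, 95% interval 0.12 to 0.65) with an adjusted p of 0.0432 from edgeR, and the exact permutation test gave p = 0.0397 (two-sided). Of all 29883 genes tested, 18.3% passed the same threshold in either direction and 8.50% were higher in D2, so that 1 of the pair being called is not in itself unusual. Without B6 replicates 3 and 5 the B6 mean was 2459 ± 223 (SD, n = 3), the log2 fold change fell to 0.22 and the adjusted p from edgeR was 0.145, where 19.2% of genes passed, 9.68% higher and 9.54% lower in D2. Leaving out a single mouse also ended the call in 8 of 10 cases (adjusted p from edgeR 0.0543 to 0.102 in those 8). DESeq2, with which 20.7% of genes passed, gave an adjusted p of 0.0115 for Patj and 0.0963 for Mpdz.

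**Figure D1:**
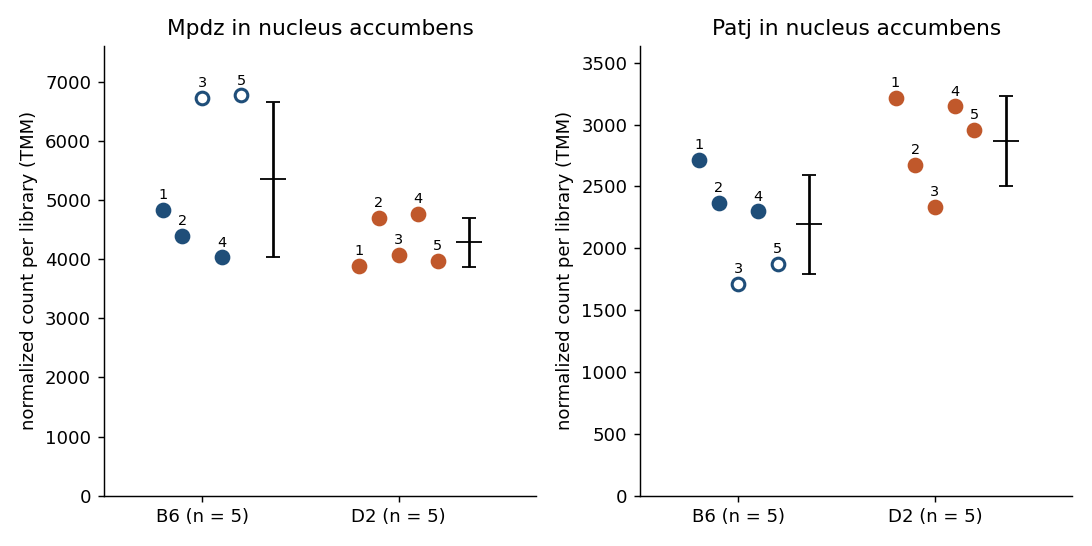
Normalized counts (TMM, y axis from 0) of Mpdz and Patj in each library of B6 and D2. Points are mice with their replicate number, open points are B6 replicates 3 and 5, and bars are the mean ± SD of 5 mice. The open points are the 2 highest for Mpdz and the 2 lowest for Patj.

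B6 replicates 3 and 5 moved the pair in opposite directions, upward in Mpdz and downward in Patj, as the plot of normalized counts by strain shows. The spread within B6 was therefore wide. The coefficient of variation of Mpdz was 24.4% in B6 and 9.85% in D2, and that of Patj was 18.2% and 12.7%. Over the 15388 genes that averaged 100 or more counts the median was 6.80% in B6 and 5.30% in D2. In B6, 93.4% of those genes varied less than Mpdz and 88.2% less than Patj. In D2 the shares were 76.9% and 85.5%, so a wide spread of Patj was not particular to B6.

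With all mice, the balance between the paralogs was shifted toward Patj in D2. The ratio of Mpdz to Patj counts within a library does not depend on sequencing depth or scaling. It was 1.78, 1.86, 3.93, 1.75 and 3.61 in B6 replicates 1 to 5. In the D2 replicates it was 1.21, 1.76, 1.74, 1.52 and 1.34. The ranges overlapped only at B6 replicate 4 and D2 replicate 2, and replicates 3 and 5 of B6 were far above all others. The means were 2.58 ± 1.08 (SD, n = 5) and 1.51 ± 0.242 (SD, n = 5). The mean log2 ratio was -0.69 in D2 relative to B6 (two-sided exact permutation test, p = 0.0159). Without B6 replicates 3 and 5 the difference was -0.26 and did not pass (exact p = 0.0714, where the smallest p for 3 against 5 is 0.0357). With all mice the pair differed unequally between strains, but passing the test depended on B6 replicates 3 and 5. The test does not say which of the pair moved.

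Per kilobase of merged exon, a scale on which levels of different genes can be set side by side, Mpdz had 1.53, 1.602, 3.38, 1.51 and 3.11 times the level of Patj in B6 replicates 1 to 5. In the D2 replicates it had 1.04, 1.51, 1.50, 1.31 and 1.16 times the level of Patj. Mpdz was thus the more abundant of the pair in every library, by the smallest margin in D2 replicate 1. This came to a mean of 2.23 ± 0.935 (SD, n = 5) for B6 and 1.30 ± 0.209 (SD, n = 5) for D2. With coding length in place of merged exons they were 2.31 and 1.35. Averaged over the libraries, Mpdz had 315 normalized counts per kilobase, more than 69.6% of the 29519 annotated genes, and Patj had 192, more than 63.1%.

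**Figure D2:**
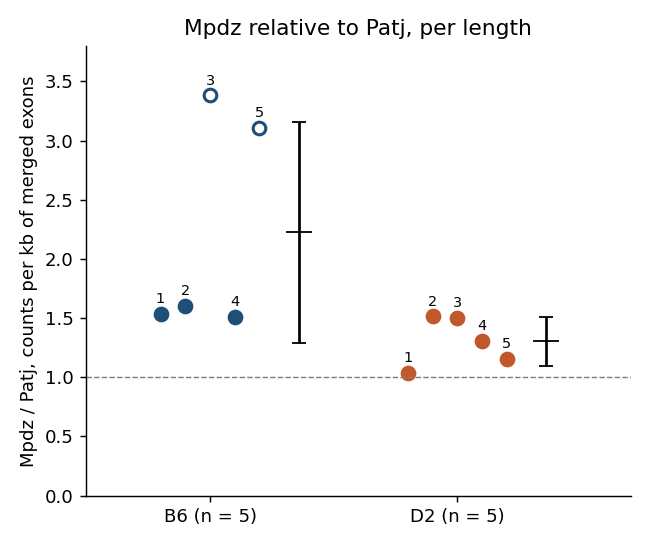
Ratio of Mpdz to Patj counts per kilobase of merged exon in each library (y axis from 0). Points are mice with their replicate number, open points are B6 replicates 3 and 5, and bars are the mean ± SD of 5 mice. The ratio lies between 1.04 and 1.51 in D2 and between 1.51 and 3.38 in B6.

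B6 replicates 3 and 5, the libraries with the most cortical marker RNA, were those with the most Mpdz and the least Patj. The summed normalized count of the 5 cortical neuron markers was 99991 and 101909 in B6 replicates 3 and 5, against 14815 to 22884 in the other B6 libraries. In D2 it ran from 30166 to 67610, between these sets. Slc17a7 made up most of the sum in B6 replicates 3 and 5, with 83441 and 85301, and in D2, with 18807 to 53140. The order of these libraries by the sum is therefore mainly that of Slc17a7. Of the 5 markers 0 passed the test between strains, and without B6 replicates 3 and 5 all but 1 were higher in D2, with a median log2 fold change of 2.01. In D2 replicates 1 to 5 the sum was 30166, 61275, 67610, 54331 and 39312. Replicates 2 and 4, highest in Mpdz, were among the 3 D2 libraries with the highest sums. Replicate 3, with the highest sum, had the lowest Patj count of D2. The order was not kept throughout, since replicate 3 held 4076 normalized counts of Mpdz, below replicates 2 and 4. Replicate 4 held 3147 of Patj, above replicate 5, which had a lower sum. With the mean log2 level of the 5 markers as a covariate in edgeR, the log2 fold change of Mpdz was -0.41 (adjusted p 3.49e-04) and that of Patj was 0.50 (adjusted p 8.70e-05), in a fit that called 26.2% of all genes. Leaving out B6 replicates 3 and 5 thus moved both differences toward 0, and adjusting for these markers moved both away from it. The part of cortical tissue in either result was not tested.

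**Figure D3:**
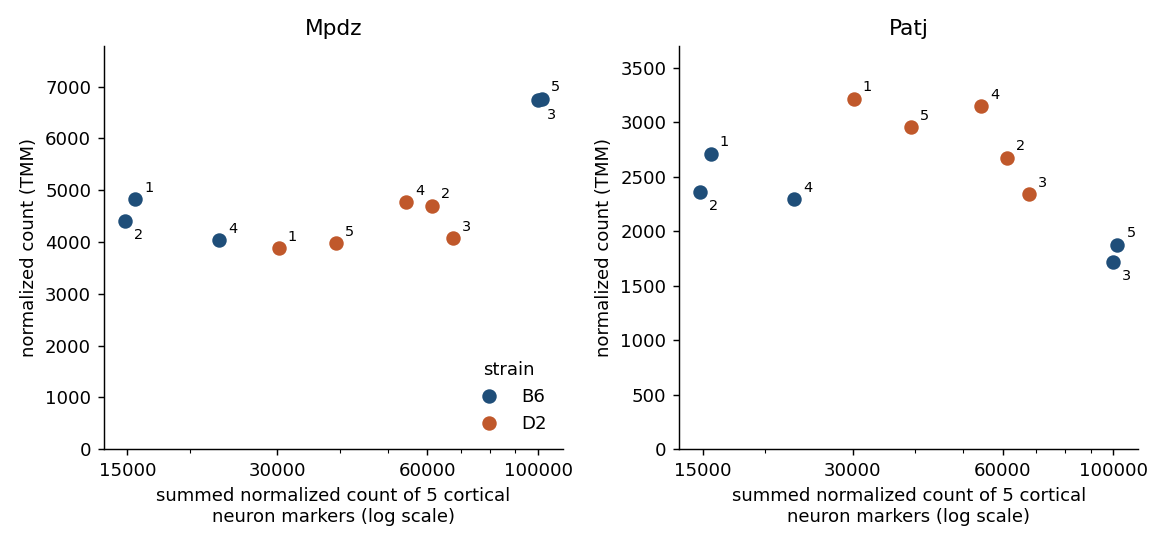
Normalized counts of Mpdz (left) and Patj (right) against the summed normalized count of 5 cortical neuron markers (log scale), 1 point for each library with its replicate number. B6 replicates 3 and 5 lie near the right edge, at 99991 and 101909, apart from every other library, and D2 lies between them and the other B6 libraries.

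The other 9 marker lists were read beside the 8.50% of all genes higher and 9.83% lower in D2. Of 7 striatal neuron markers 4 were lower in D2 and 0 higher, and 5 were lower without B6 replicates 3 and 5. Of 6 oligodendrocyte markers 4 were lower (median log2 fold change -0.33), of which Olig1 alone passed without those libraries. The oligodendrocyte sum was 581550 and 578507 in B6 replicates 3 and 5, 411879 to 485197 in the other B6 libraries and 315685 to 459449 in D2. Astrocyte markers gave 1 higher and 2 lower of 6, microglial markers 1 and 1 of 5, mural cell markers 1 and 1 of 4, and those of oligodendrocyte precursors 1 and 0 of 4. In the fit without B6 replicates 3 and 5 these counts were 1 and 1, 1 and 1, 1 and 1, and 0 and 0. Of 6 endothelial markers 0 passed in either fit, with sums of 14933 to 18891 in B6 and 12971 to 17835 in D2.

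The marker lists of both epithelia of the ventricles, in which Crumbs complex proteins are placed at cell junctions, varied between libraries. The choroid plexus list, with 1 of 5 genes lower in D2 in either fit, had a sum of 2013 and 2123 in B6 replicates 3 and 5, against 4083 to 4232 in the other B6 libraries and 3778 to 5043 in D2. The choroid plexus sum was thus lowest in the same libraries as Patj. It follows mainly Clic6 and Kl, which averaged 2972 and 801 counts per library. Ttr, Folr1 and Kcnj13 of the same list averaged 18.4, 2.7 and 50.5, so the sum does not show how much choroid plexus a library held. Of 5 markers of ependyma 0 passed in either fit, and the ependymal sum was 1224 to 1749 in B6. In D2 it was 2129 and 2237 in replicates 2 and 4 and 790 to 1294 in the others. D2 replicates 2 and 4 were also those with the highest Mpdz counts of D2. This order was not seen in B6, where the highest sum (1749) was in replicate 4, with the lowest Mpdz count of B6 (4030). B6 replicates 3 and 5, highest in Mpdz, had ependymal sums of 1325 and 1429. Of the ependymal genes, Tmem212 held 162 and 178 normalized counts in D2 replicates 2 and 4 and 5.49 to 56.0 in the other D2 libraries. The part of these cell types in the values of Mpdz and Patj was not tested.

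The genes whose products are known to bind or work beside the pair were read from 4 lists. In the Crumbs and polarity complex, 2 of 17 genes were higher in D2 and 2 lower, with a median log2 fold change of -0.01 against 0.0036 over all genes tested. The direct partner Pals1, which links both scaffolds to Crumbs, had 5032 ± 706 normalized counts in B6 and 5050 ± 373 in D2 (SD, n = 5), with an adjusted p of 0.977 from edgeR. Crb1, Crb2, Lin7a, Lin7b and Lin7c, the Crumbs proteins and the small scaffolds that bind Pals1, had log2 fold changes of -0.10 to 0.15 and did not pass. Crb3, the short epithelial Crumbs protein, was higher in D2 by 0.66 on the log2 scale (SE 0.173, adjusted p 0.0173 from edgeR), at the low level of 38.9 ± 8.48 and 61.6 ± 7.84 normalized counts (SD, n = 5). Pard3, the central scaffold of the PAR polarity complex, was lower, with 5649 ± 280 in B6 and 4984 ± 118 in D2 and no overlap of the strains, as in 16.0% of all genes (adjusted p 0.00459 from edgeR). The atypical protein kinases C of that complex split, with Prkci higher by 0.12 and Prkcz lower at -0.14 on the log2 scale (adjusted p 0.0300 and 0.0465 from edgeR). Leaving out 1 mouse ended the call of Prkci in 6 of 10 fits and that of Prkcz in 8 of 10. In the fit that left out B6 replicates 3 and 5 the counts were again 2 higher and 2 lower, with Crb3, Prkci and Pard3 called and Prkcz not (adjusted p 0.174). Its place was taken by Pard6g, another protein of the PAR complex, named after its values were seen.

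Among tight junction partners 1 gene was higher and 1 lower of the 13 in the table (median 0.04), while Cldn8 was not among the rows. Marveld2, or tricellulin, which seals the corners where epithelial cells meet, rose from 73.4 ± 15.6 to 138 ± 20.7 normalized counts (SD, n = 5), a log2 fold change of 0.91 (SE 0.164, adjusted p 0.00157 from edgeR). Jam3, a junctional adhesion molecule, was lower at -0.16 (adjusted p 0.0294 from edgeR), which did not pass without B6 replicates 3 and 5 (adjusted p 0.117) or in 6 of 10 fits that left out 1 mouse. Marveld2 passed without B6 replicates 3 and 5 (adjusted p 0.00505 from edgeR), and the list then held 1 higher and 0 lower.

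Of 14 receptor and synaptic partners, 1 was lower and 0 were higher in D2 (median -0.06). Gabbr1, the subunit of the GABA-B receptor that binds GABA, was lower in D2, with 101500 ± 1881 in B6 and 89697 ± 1938 in D2 (SD, n = 5, log2 fold change -0.18, SE 0.0328, adjusted p 0.00178 from edgeR). Gabbr2, the subunit that Mpdz binds, had a log2 fold change of 0.06 (adjusted p 0.779). Htr2c, the receptor best known as a partner of Mpdz, had 0.16 (adjusted p 0.122). This list held, without B6 replicates 3 and 5, 4 higher genes and 1 lower, which was again Gabbr1, with Gabbr2 at 0.28 (adjusted p 0.00308 from edgeR) and Htr2c at 0.23 (adjusted p 0.0260 from edgeR). The other 2, named after their values were seen, were Sstr3, a somatostatin receptor, and Plekha2, a lipid-binding adaptor. Sstr3 held 1864 and 2055 normalized counts in B6 replicates 3 and 5, 469 to 571 in the other B6 libraries and 633 to 1131 in D2. Gabbr2 held 20915 and 20776, 13714 to 15285, and 16748 to 19707, and Plekha2 3131 and 3088, 1637 to 1816, and 1704 to 2568. In Sstr3, Gabbr2 and Plekha2 the libraries left out thus lay above all of D2. In Htr2c they held 16970 and 16814, inside the D2 range of 15739 to 19922.

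Among 17 other multi-PDZ scaffolds, 1 was higher in D2 and 4 were lower (median -0.03). Grip1, a scaffold of AMPA receptors, rose from 3244 ± 112 to 3736 ± 154 normalized counts (SD, n = 5, log2 fold change 0.20, adjusted p 0.00255 from edgeR). Dlg4, or PSD-95, the main scaffold of the excitatory postsynapse, was lower in D2, at 88150 ± 3407 and 78391 ± 1728 (SD, n = 5, log2 fold change -0.17, adjusted p 0.00587 from edgeR). Il16, the precursor of a cytokine with PDZ domains, was lower at -0.35, Nherf1, a membrane adaptor of transporters, at -0.23, and Magi2, a synaptic scaffold, at -0.13 on the log2 scale (adjusted p 0.00865, 0.00233 and 0.00894 from edgeR). These 5 calls held without B6 replicates 3 and 5, where the list had 2 higher and 4 lower. The lists were given no test of their own, and their counts are to be read beside the 8.50% of all genes higher and 9.83% lower in D2.

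**Figure D4:**
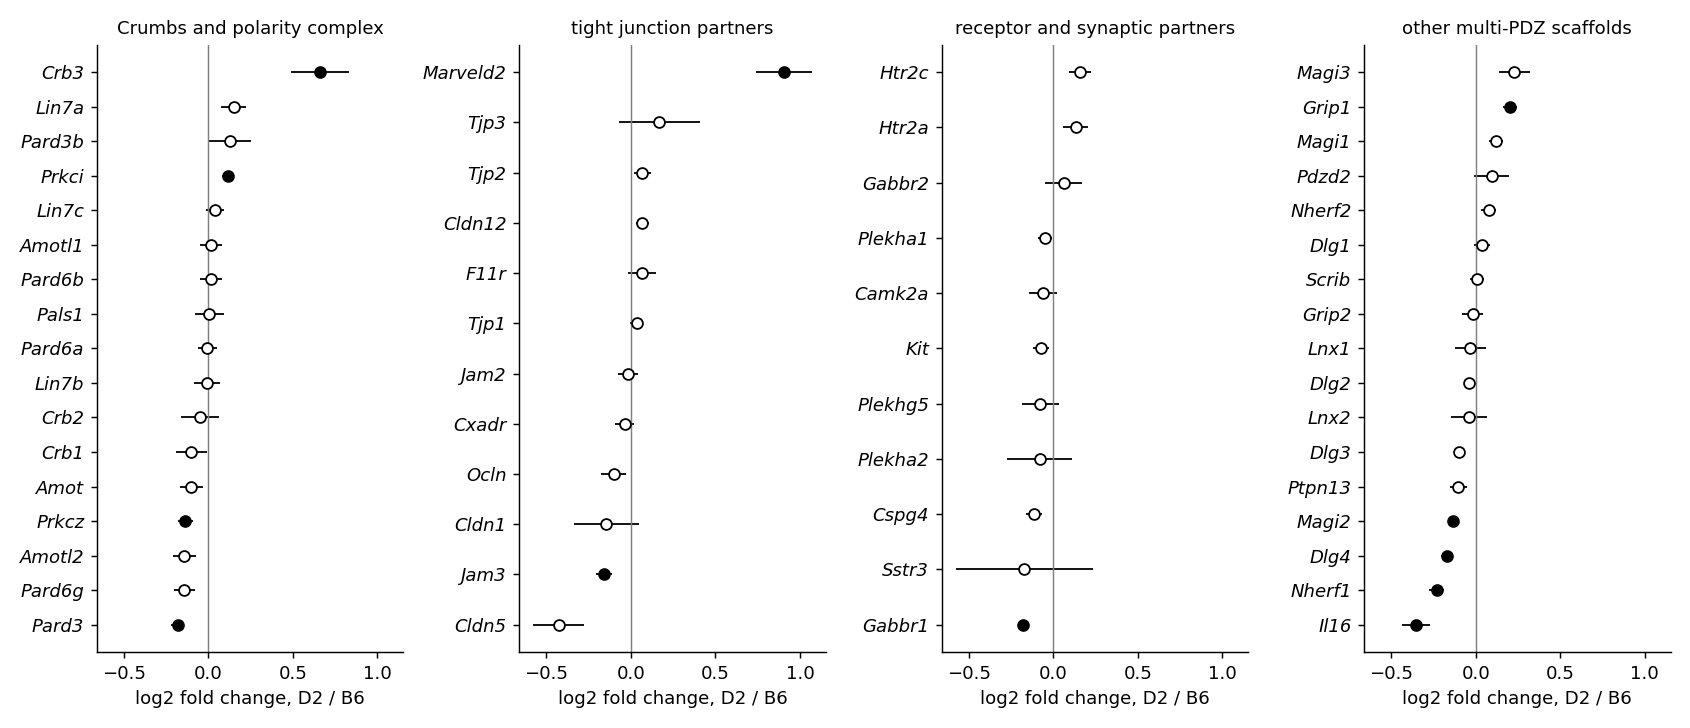
Log2 fold change of D2 against B6 (x axis) for the genes of 4 lists around Mpdz and Patj, with bars of 1 SE. Filled points have an adjusted p under 0.05 in edgeR, and genes with a mean under 30 counts and 1 other gene are left out. Marveld2 and Crb3 lie farthest to the right among the filled points, at 0.91 and 0.66, and Il16 farthest to the left at -0.35.

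Genes near the pair were examined for other strain differences on chromosome 4. Within 1 Mb of Mpdz 26 genes are annotated and 4 are in the table, of which 0 passed. The nearest protein-coding genes tested were Lurap1l, 203 kb away (log2 fold change 0.01, adjusted p 0.982), and Nfib, a transcription factor of neural development 837 kb away (0.24, adjusted p 0.363). Over all genes 18.3% were called, with 8.50% higher and 9.83% lower in D2. Within 1 Mb of Patj 22 of 66 annotated genes are in the table, and 0 were higher and 4 lower. The share called was close to that of all genes in either direction, but each of the 4 was lower. Atg4c, an autophagy protease 474 kb away, was the only one of these to average 100 or more counts, at 3813 ± 228 in B6 and 3224 ± 114 in D2 (SD, n = 5, log2 fold change -0.24, adjusted p 0.00210 from edgeR, and 0.00866 without B6 replicates 3 and 5). On the side of Patj's start, Tm2d1 at 12.5 kb had a log2 fold change of 0.07 (adjusted p 0.264). On the other side L1td1, at 7.13 kb, was lower in D2 at 6.29 and 1.16 normalized counts, too few for a firm fold (adjusted p 0.0197 from edgeR, and 0.0535 without B6 replicates 3 and 5).

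Nfib passed the test without B6 replicates 3 and 5, at 0.53 (adjusted p 0.00705 from edgeR). Nfia, a paralog of Nfib that lies 277 kb from Patj and was named after its values were seen, also passed, at 0.47 (adjusted p 5.64e-04 from edgeR, and not past the threshold with all mice). Nfib held 6374 and 6484 normalized counts in B6 replicates 3 and 5, 3489 to 4567 in the other B6 libraries and 5048 to 7238 in D2. Nfia held 3583 and 3740, 2447 to 2643, and 3155 to 4028. In both genes B6 replicates 3 and 5 lay inside the range of D2 and the other B6 libraries below it.

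The genes whose pattern over the 10 libraries was most like that of each member were found by Pearson's correlation of TMM-scaled log2 counts, among 15387 genes that averaged 100 or more counts. For Mpdz they were Abcb1b (0.978), Dscaml1 (0.976), Enc1 (0.969), Aak1 (0.958) and Hspa1a (0.955). Each was highest in B6 replicates 3 and 5, as Enc1 with 45702 and 45232 normalized counts against at most 31176 elsewhere. After the strain means were subtracted the 5 nearest were Xylt1, Miat, Bmpr1b, Kcnk9 and Hivep3 (0.972 to 0.992). For Patj they were Ttc17 (0.987), Ednrb (0.974), A530083I20Rik (0.973), ENSMUSG00000060530 (0.971) and Nova1 (0.970), each lowest in B6 replicates 3 and 5. After subtraction they were Nup153, Ttc17, Nufip1, Zfp275 and Susd4 (0.965 to 0.980). The points share their libraries, and 2 of the 10 stand apart, so these values describe a likeness in these libraries and carry no test.

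Across the other scalings, filters and tests of all 10 libraries, Mpdz was not called (adjusted p 0.0963 to 0.232) and Patj was (0.00470 to 0.0454), in edgeR and DESeq2 alike. The calls changed only with the libraries or the covariate. Mpdz passed with the marker covariate and without B6 replicate 4, and the call of Patj was lost without B6 replicates 3 and 5 together and in most fits that left out 1 mouse.

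**Figure D5:**
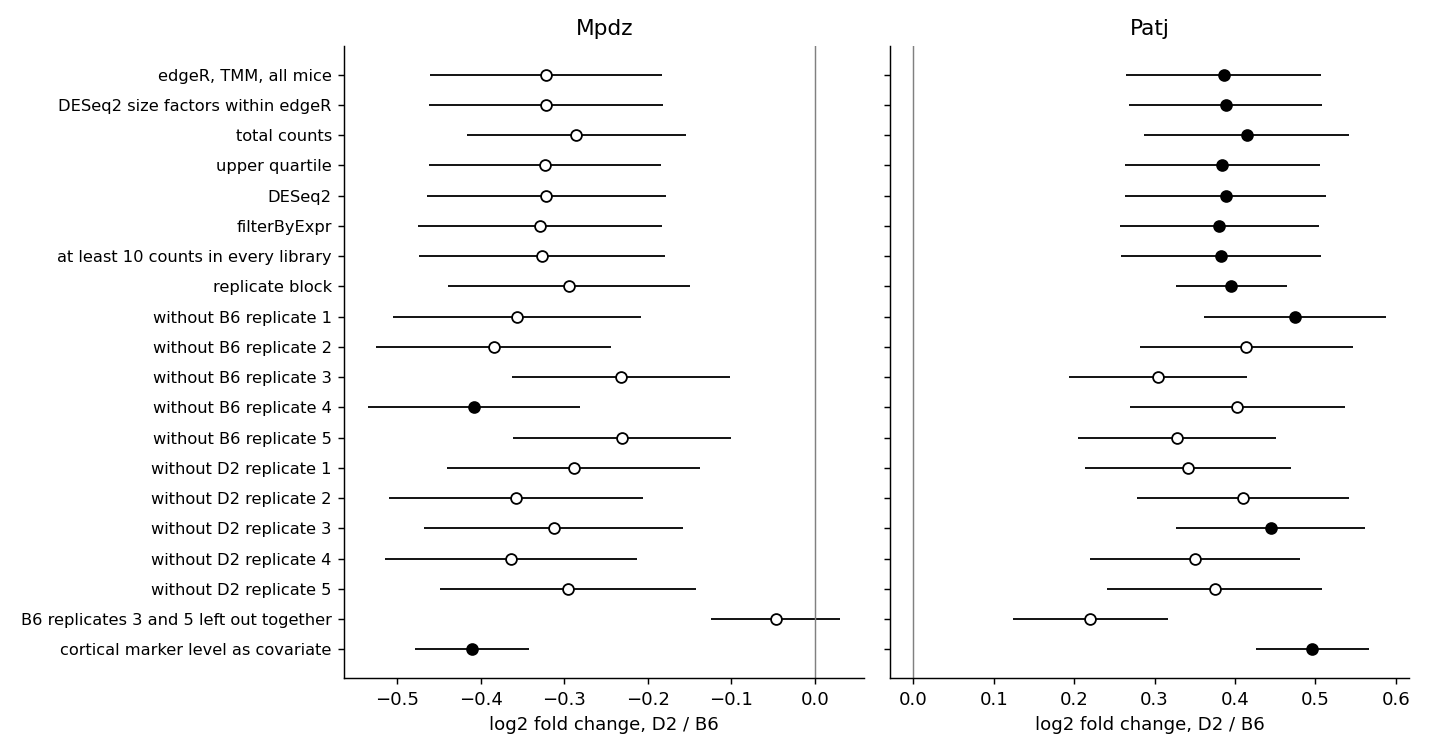
Log2 fold change of D2 against B6 for Mpdz and Patj under each way of processing the counts, with bars of 1 SE. Filled points have an adjusted p under 0.05. Mpdz stays below 0 and Patj above 0 throughout, between -0.41 and -0.05 and between 0.22 and 0.50.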

How the data were processed

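Poly-A RNA was sequenced from the NAc of 10 male mice, 5 of each strain, and each mouse gave 1 library and served as a replicate. After trimming with fastp, the authors mapped reads of both strains with STAR 2.7.10b to GRCm39, which is the genome of B6, handled alignments with SAMtools 1.6 and counted reads per gene with featureCounts. D2 reads that differ from the reference can align less well, and the effect of this on either gene was not tested. The labels name Novogene as provider of the libraries, and the methods name a core facility with a stranded kit. The table deposited by the authors holds raw gene counts. Columns of row summaries that the authors added to the table were not used. No gene in it had a median count under 0.5. Depth was 96977262 to 116776714 counts per library.

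Identifiers were matched to GENCODE vM39 (29519 of 29883). Counts were fitted with edgeR 4.0.16 in R 4.3.3 (TMM, quasi-likelihood F test, two-sided, strain as the factor), p-values adjusted by Benjamini-Hochberg over the whole table and a threshold of 0.05. SE was derived from the log2 fold change and its F statistic. Single values were compared by exact permutation tests over 252 assignments of the mice in Python 3.11.15 with scipy 1.17.1. Genes named are Mpdz and Patj, called genes of the 4 lists with a mean of at least 100 counts (at most 6 per list), direct partners, called or nearest genes within 1 Mb, and the 5 genes most like each member. Of the list genes under this rule and of the cortical markers, 1 each is not reported by name here, and both are in the counts and sums of their lists. The members and lists were chosen with earlier results of these data known. Alternatives were DESeq2 1.42.0, its size factors, total counts, upper-quartile scaling, filterByExpr, at least 10 counts in every library, a replicate block, and leaving out each mouse. Leaving out B6 replicates 3 and 5 together and a cortical marker covariate were added after the data were seen. The scripts were tested on simulated data.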

Additional observations from a re-analysis of the deposited data

Results flagged for a closer look

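Within each strain, the highest or lowest mouse was set against the others for the genes named in the report (Dixon's test, 58 groups of 5 mice). In 4 of the 58 groups 1 mouse stood far from the rest. Chance alone gives about 1 in every 20 groups, so this number is near what chance gives. Gabbr1 in D2 replicate 2 had 86235 normalized counts, below the next at 90495. Grip1 in B6 replicate 1 had 3438, above the next at 3229. Pals1 in D2 replicate 1 had 5716, above the next at 4920. Crb2 in B6 replicate 3 had 468, above the next at 431. Mpdz and Patj were not among them, since B6 replicates 3 and 5 lie close together and neither stands alone.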

How the results depend on the processing

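In every alternative run, Mpdz had a negative and Patj a positive log2 fold change. With 1 mouse left out, Mpdz ran from -0.41 to -0.23 (adjusted p from edgeR 0.0488 to 0.291), and passed only without B6 replicate 4. Patj ran from 0.30 to 0.47 (adjusted p 0.0119 to 0.102) and passed only without B6 replicate 1 and without D2 replicate 3. The log2 ratio of the pair ran from -0.80 to -0.51 (exact p 0.0159 to 0.0317) and the number of genes called from 4636 to 5676. Of the alternatives added after the data were seen, leaving out B6 replicates 3 and 5 gave 0.22 for Patj and -0.26 for the ratio, neither past the threshold, and the cortical marker covariate gave -0.41 for Mpdz, past it. The main count was 5478 genes, and the other alternatives gave 4532 to 7830, within 1.5 times of it. With total counts 45.0% of the calls were lower in D2, against 53.6%, and no scaling moved the median gene by more than 0.0308.

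Replicate numbers are shared by the strains in the labels but did not pair the mice. Deviations of mice with the same number correlated at 0.371, -0.415, 0.369, 0.034 and -0.293 over 15388 genes. With the replicate number as a block, Mpdz was at -0.29 (adjusted p 0.232 from edgeR), Patj at 0.40 (adjusted p 0.00470 from edgeR) and 4731 genes were called. The ratio was -0.69 with an exact sign-flip p of 0.0625, the smallest that 5 pairs allow.

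Some calls of partner genes also depended on the setting. Prkcz was lost with DESeq2's size factors (adjusted p 0.0551) and total counts (0.0783), Prkci with the replicate block (0.0699), Jam3 with total counts (0.0686) and the block (0.0608), Magi2 with total counts, and L1td1 with the block. Among genes not called, some near 0 changed sign. Under filterByExpr Pals1 was at -0.00086 and Lurap1l at -0.0011, with total counts Lin7b was at 0.0261, and with the covariate Gabbr2 was at -0.0123 and Lurap1l at -0.0672. Without B6 replicates 3 and 5 Pals1 was at -0.11, Lin7b at 0.0950 and Lin7c at -0.0289. With 1 mouse left out, Pals1 ran from -0.0593 to 0.0737, Crb2 from -0.14 to 0.0264, Lin7b from -0.0683 to 0.0366, Lin7c from -0.0037 to 0.0774, Gabbr2 from -0.0094 to 0.14 and Lurap1l from -0.0587 to 0.0808. The cause of these changes was not tested. With 5 mice a strain, 2 of them unlike the rest of B6, small differences cannot be resolved here for genes that vary widely between mice. Raw counts of the pair were at least 1499 in every library, so the spread between mice and not counting error sets the precision.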
